A study of Mus musculus with 3 samples.

Results

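Ptgs2-expressing lymphatic endothelial cells (LEC) of the mouse small intestine were examined in single-cell RNA sequencing data. They were chosen by their raw counts of unique molecular identifiers (UMIs), each of which stands for 1 captured mRNA molecule. A barcode, the tag of 1 droplet, was kept when it had 500 or more genes detected and no more than 15% of its UMIs came from mitochondrial genes. It was called a LEC with at least 1 UMI of Prox1, the transcription factor that sets lymphatic identity, and at least 5 UMIs of Lyve1, a hyaluronan receptor of lymphatic capillaries. It could hold no UMI of Ptprc (the pan-leukocyte gene) or Epcam (the epithelial gene) and at most 2 of Dcn (a fibroblast gene). LEC with at least 2 Ptgs2 UMIs and fewer than 3 UMIs of Cxcl9, an interferon-induced chemokine, were the selected cells, called Ptgs2+ LEC here. There were 273 of them among 17975 LEC, 22534 barcodes past the quality filters and 24541 barcodes in all.

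The 3 libraries came from small intestine without duodenum of wild-type C57Bl/6 female mice aged 9 to 10 weeks, with 4 animals pooled in each library. The epithelium was removed with EDTA and DTT before a digestion of 60 min at 37 °C with Liberase TL and DNase I. Live cells without CD45 and with CD31 and podoplanin on their surface were sorted and run on 10x 3′ v3 chemistry. There was no treatment, no control group and no undigested sample, so the comparisons lie between cells of the same libraries. Whether the pools held different animals is not stated. With each library as its own block, the p-values measure only how the difference between cell groups varied across these 3 libraries. That variation may be technical. Library totals were 58857545, 69231794 and 74571090 UMIs. Libraries shared 13 to 30 barcodes pairwise, none of them a Ptgs2+ LEC.

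Ptgs2 encodes cyclooxygenase-2, the inducible enzyme that turns arachidonic acid into the precursor of prostaglandins and thromboxane. Its gene is an immediate-early and inflammatory target, switched on within a short time by growth factors, cytokines and mechanical or dissociation stress, and its mRNA decays fast. LEC line the lymph capillaries and the lacteals of the villi, which drain fluid, chyle and immune cells from the gut wall, and they can release chemokines that guide leukocytes.

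Ptgs2+ LEC were set against LEC of the same library with no Ptgs2 UMI and a share of Fos UMIs at or above the median of that library's LEC, called Fos-high LEC here. Fos is an immediate-early transcription factor gene that cell dissociation induces, and these 8680 cells serve as the reference. The 184 LEC with exactly 1 Ptgs2 UMI and fewer than 3 of Cxcl9, called 1-UMI LEC, lie just under the selection limit, and 8823 Ptgs2-negative LEC with a lower Fos share are given as a further level. Not every selected cell had a high Fos share. It was at or above the library median in 191 of the 273 Ptgs2+ LEC and below it in 82, so the Fos-high reference as a whole held more Fos than the Ptgs2+ LEC did. Fos stood at 7113, 7028 and 6368 counts per 1000000 UMIs (CPM) in the Ptgs2+ LEC of libraries 1, 2 and 3, against 9370, 7608 and 9226 CPM in Fos-high LEC. Ptgs2+ LEC were also deeper, with median totals of 9974, 8826 and 8618 UMIs, against 8480, 7428 and 7103 in Fos-high LEC, and a limit of 2 UMIs is met more easily in a deep cell.

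Ptgs2 was carried by few LEC, and in those it ranged widely. In library 1, 149 of 5570 LEC were selected, or 2.68% (exact Clopper-Pearson 95% interval 2.27 to 3.13). In library 2, 42 of 4454 were selected, or 0.943% (0.680 to 1.27). In library 3 the selected cells were 82 of 7951, or 1.03% (0.821 to 1.28). The share in library 1 lay above the intervals of the other libraries, which overlap each other, and these intervals cover counting error only. With every LEC thinned to 3000 UMIs, the shares were 1.44%, 0.531% and 0.527%. The median Ptgs2+ LEC held 4 Ptgs2 UMIs and the highest held 103. There were 72 cells with 2 UMIs, 33 with 3, 109 with 4 to 9 and 59 with 10 or more. The Ptgs2+ LEC held 87.9% of all Ptgs2 UMIs found in LEC. Summed over cells, Ptgs2 stood at 763, 521 and 794 CPM in Ptgs2+ LEC and, in 1-UMI LEC, at 100.2, 108 and 107 CPM, while the Fos-high LEC had none by selection. A further 11 LEC held 2 or more Ptgs2 UMIs but also 3 or more Cxcl9 UMIs and were left out by the rule.

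**Figure D1:**
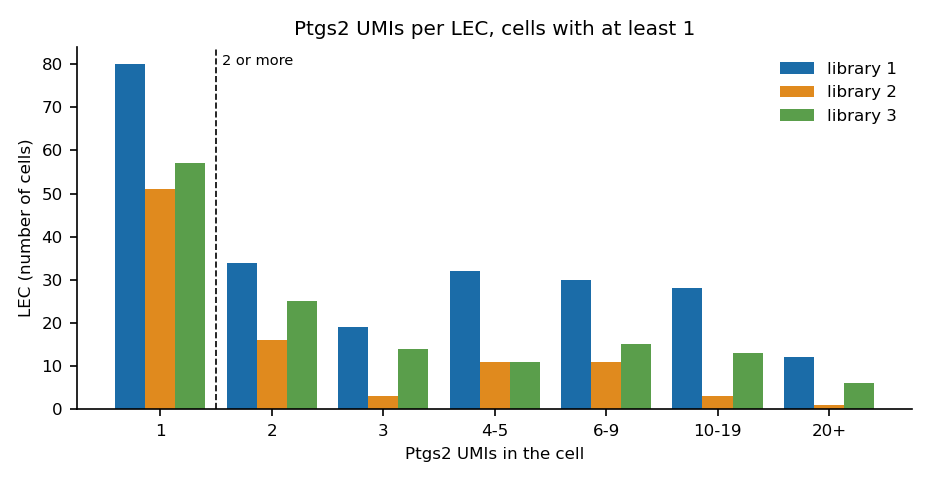
Number of LEC (y axis) by the Ptgs2 UMIs they held (x axis), for LEC with at least 1 Ptgs2 UMI in each of the 3 libraries, Cxcl9-high cells included; the dashed line marks the limit of 2 UMIs. Cells with 1 UMI are the most frequent class in each library, and library 1 holds most of the cells with 10 or more.

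Droplets also pick up free RNA, and the share of barcodes with 2 or more Ptgs2 UMIs was therefore taken in epithelial barcodes (5 or more Epcam UMIs and no Prox1). It was 1.07% of 562 epithelial barcodes, at a median of 27050 UMIs, against 1.58% of all 17975 LEC at a median of 7205. After thinning to 3000 UMIs, 1.69% of LEC and 0.725% of epithelial barcodes held any Ptgs2 UMI. By library, the thinned shares were 2.64%, 1.22% and 1.29% in LEC, against 0 of 107 barcodes, 0.562% and 2.25% in epithelial barcodes. The thinned LEC share was the higher in libraries 1 and 2, and in library 3 the thinned epithelial share was the higher, from 2 of 89 barcodes. How many 1-UMI and 2-UMI LEC hold free RNA was not tested.

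Most defining lymphatic genes were found in the Ptgs2+ LEC. Flt4, the receptor for the lymphangiogenic factor VEGF-C, had a UMI in all 273 cells, as did Ccl21a, the chemokine that draws dendritic cells into lymphatics. Reln, a secreted lymphatic protein, was found in 98.8% to 100% of the cells by library, and Nr2f2, a partner of Prox1, in 97.3% to 100%. Pdpn, the podoplanin gene, was found in 73.8%, 64.3% and 64.6% of Ptgs2+ LEC, against 78.9%, 73.5% and 71.5% of Fos-high LEC, so its share was the lower in each library. Tbx1, a transcription factor gene of lymphatic growth, was found in 71.1%, 54.8% and 76.8%, against 74.5%, 72.5% and 71.95%, lower in libraries 1 and 2. Sox18, a factor gene upstream of Prox1, was found in 73.2%, 52.4% and 62.2%, against 68.8%, 55.4% and 54.5%, lower in library 2. Mmrn1, another lymphatic gene, was at 0 in both the Ptgs2+ LEC and the Fos-high LEC. Genes of other cells were scarce: the 5 fibroblast genes summed to 7 UMIs over all 273 cells (1.94 to 3.90 CPM by library, against 4.42 to 13.3 CPM in Fos-high LEC), with Col1a2 and Lum at 0. The neutrophil and the T or innate lymphoid genes were at 0 in Ptgs2+ LEC, as were Cd52 and Csf1r of the myeloid list and Rgs5 of the mural list. Blood endothelial genes summed to 472 to 544 CPM in Ptgs2+ LEC, against 560 to 591 CPM in Fos-high LEC, with Esm1 and Madcam1 at 0. Epithelial genes summed to 25.2 to 66.1 CPM, against 22.2 to 101 CPM, and plasma cell genes to 32.3 to 94.0 CPM, against 12.7 to 115 CPM. Kit was the only gene of the mast cell list with UMIs, with Cpa3 and Mcpt1 at 0. Cycling genes stood at 9.10 to 17.8 CPM, against 10.0 to 32.4 CPM.

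The genes named with Ptgs2 when the cells were proposed were 2 chemokine genes, Cxcl2 and Ccl2, with the polyamine enzyme gene Odc1 and the zinc finger factor gene Egr4. They were picked with these data in view, so their values are a description and carry no test. Cxcl2, whose product draws neutrophils, stood at 1071, 1011 and 1414 CPM in Ptgs2+ LEC and at 876, 530 and 888 CPM in 1-UMI LEC, against 567, 487 and 707 CPM in Fos-high LEC. Ccl2, whose product draws monocytes, had 401, 788 and 499 CPM in Ptgs2+ LEC and 218, 492 and 896 CPM in 1-UMI LEC, against 120, 128 and 134 CPM in Fos-high LEC. In the 1-UMI LEC of libraries 2 and 3, 1 cell held 43.3% and 57.05% of the Ccl2 UMIs, and without the highest cell of each library Ccl2 stood at 176, 284 and 400 CPM there. Odc1, the rate-limiting enzyme of polyamine synthesis, had 335, 394 and 311 CPM in Ptgs2+ LEC and 292, 169 and 264 CPM in 1-UMI LEC, against 188, 122 and 153 CPM in Fos-high LEC. For these 3 genes every Ptgs2+ value lay above every Fos-high value, with log2 fold changes of 0.96, 2.03 and 1.08. Egr4 did not separate the groups: it had 78.7, 22.9 and 91.0 CPM in Ptgs2+ LEC, against 46.5, 26.7 and 36.9 CPM in Fos-high LEC, and library 2 ran the other way. A single cell held 47.4% of the Ccl2 UMIs of the 42 selected cells of library 2 and 66.7% of their Egr4 UMIs.

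Most Ptgs2+ LEC did not carry the whole set. After thinning to 3000 UMIs, 20.4%, 33.3% and 21.95% of the Ptgs2+ LEC of libraries 1, 2 and 3 held no UMI of Cxcl2, Ccl2, Odc1 or Egr4, against 46.0%, 53.5% and 46.7% of Fos-high LEC. At least 2 of the 4 genes were found in 44.2%, 38.1% and 50% of Ptgs2+ LEC, against 18.98%, 13.7% and 17.3% of Fos-high LEC. All 4 together were found in 1.36% to 3.66% of Ptgs2+ LEC by library, against 0.182% to 0.309% of Fos-high LEC.

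**Figure D2:**
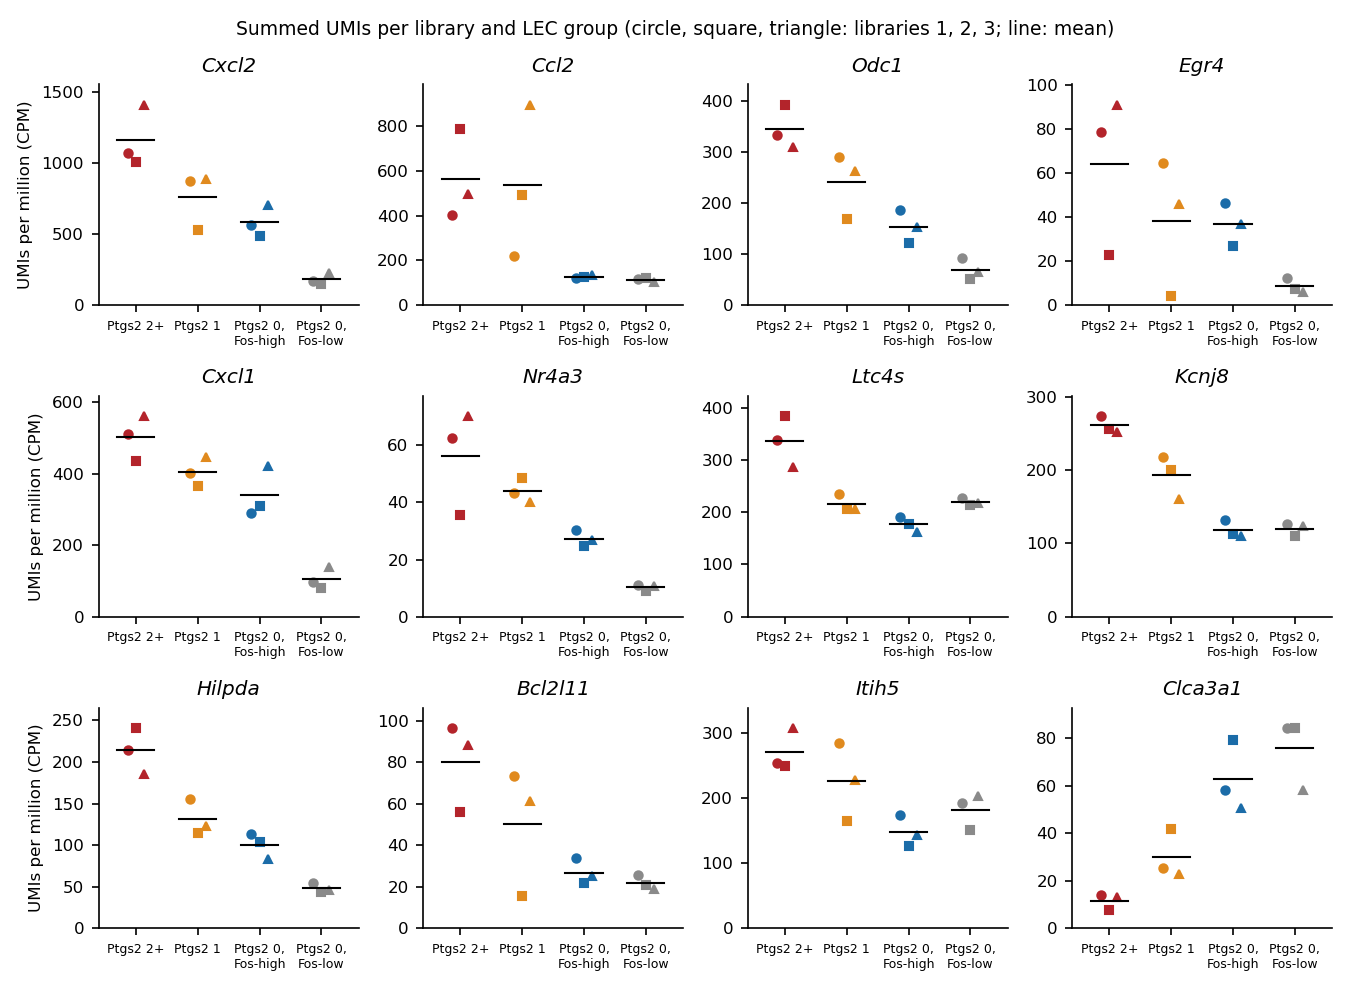
CPM of summed UMIs (y axis) of 12 genes in LEC with 2 or more Ptgs2 UMIs, LEC with 1, Ptgs2-negative Fos-high LEC and Ptgs2-negative Fos-low LEC (x axis, left to right); each symbol is 1 library and the line is the mean of 3. Cxcl2, Odc1, Cxcl1, Nr4a3 and Hilpda fall from left to right across all 4 groups in their means, whereas Ccl2, Kcnj8 and Bcl2l11 differ little between Fos-high and Fos-low LEC; Clca3a1 is lowest in LEC with 2 or more Ptgs2 UMIs.

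Since these genes were named together, their promoters are printed from RefSeq (GRCm38.p6, 250 bases before to 50 after the start of the transcript, on the strand of the gene). The promoter set used held no entry for Ccl2, so its window is missing here. Ptgs2 lies at chr1:150099781-150100080 (+), Cxcl2 at chr5:90903649-90903948 (+), Egr4 at chr6:85513540-85513839 (-) and Odc1 at chr12:17544623-17544922 (+). Capitals mark every match, on either strand, to TATAAA, to the AP-1 motif TGANTCA, to the cyclic AMP element half-site TGACG, to the E-box CACGTG, to the NF-kB consensus or to the CArG box of serum response factor.
Ptgs2: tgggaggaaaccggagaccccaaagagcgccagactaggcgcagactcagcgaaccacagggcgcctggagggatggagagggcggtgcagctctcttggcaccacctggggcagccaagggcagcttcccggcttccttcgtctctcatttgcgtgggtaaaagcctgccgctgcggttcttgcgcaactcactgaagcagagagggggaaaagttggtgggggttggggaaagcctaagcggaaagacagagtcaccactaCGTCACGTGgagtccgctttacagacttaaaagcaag
Cxcl2: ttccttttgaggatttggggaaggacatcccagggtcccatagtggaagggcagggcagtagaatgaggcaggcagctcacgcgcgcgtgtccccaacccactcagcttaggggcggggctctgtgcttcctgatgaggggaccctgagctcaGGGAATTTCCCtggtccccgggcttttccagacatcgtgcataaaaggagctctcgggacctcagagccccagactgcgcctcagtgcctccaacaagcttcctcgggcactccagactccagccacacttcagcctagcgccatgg
Egr4: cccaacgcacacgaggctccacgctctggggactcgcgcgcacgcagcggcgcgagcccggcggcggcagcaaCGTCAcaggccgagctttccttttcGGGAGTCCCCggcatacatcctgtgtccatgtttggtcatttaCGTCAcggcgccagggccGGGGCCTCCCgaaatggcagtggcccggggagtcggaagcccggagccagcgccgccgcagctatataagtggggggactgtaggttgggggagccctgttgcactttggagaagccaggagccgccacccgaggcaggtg
Odc1: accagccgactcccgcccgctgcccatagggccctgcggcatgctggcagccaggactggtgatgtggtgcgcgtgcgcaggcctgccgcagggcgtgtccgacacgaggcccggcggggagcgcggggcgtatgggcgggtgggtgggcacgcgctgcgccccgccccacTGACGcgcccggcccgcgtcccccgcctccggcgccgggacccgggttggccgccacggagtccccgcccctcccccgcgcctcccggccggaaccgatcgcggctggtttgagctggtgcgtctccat
The Ptgs2 window held a TGACG match, read on the opposite strand from base 14 after the start, that shares letters with a CACGTG match at base 17. The Cxcl2 window held 2 NF-kB matches on opposite strands that share letters, 97 and 96 bases before the start. The Egr4 window held 2 TGACG matches, 177 and 109 bases before the start, and NF-kB matches on both strands at 152 and at 91 bases. The Odc1 window held 1 TGACG match, 79 bases before the start. TGACG occurred in 20.8%, CACGTG in 7.15%, the NF-kB consensus in 8.46%, TGANTCA in 7.81%, TATAAA in 13.6% and the CArG box in 1.63% of all 32851 promoter windows of the same length. A match describes letters only, and no binding was measured.

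Across all genes, the question was what else differed between Ptgs2+ LEC and Fos-high LEC of the same library. With the library as a block, edgeR's quasi-likelihood test called 534 of 11783 genes (4.53%) at an adjusted p under 0.05, of which 293 (2.49%) were higher in Ptgs2+ LEC and 241 (2.05%) lower. The genes used by the gates and the 4 genes named with Ptgs2 are not among these. Of the 534 calls, 522 had the same sign in all 3 libraries and 105 exceeded 1 on the log2 scale, 62 higher and 43 lower. The count depends on the setting: without the library block it was 169 (122 higher, 47 lower), with DESeq2 290, and without library 1, which holds 149 of the 273 cells, 340. Standard errors (SE) below are approximate, taken as the size of the log2 fold change divided by the root of the F statistic. Where library values of both groups are said not to overlap, that is a description. The share of all genes without overlap was not counted.

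Of 16 chemokine and cytokine genes tested, 5 were higher (31.2%), 2 lower and 9 not called, against 2.49% higher and 2.05% lower over all genes tested. Their median log2 fold change was 0.18, against -0.02 over all genes tested, and several of the higher genes lay in few cells. Cxcl1, a neutrophil-drawing chemokine close to Cxcl2, had 511, 437 and 561 CPM in Ptgs2+ LEC, against 290, 310 and 422 CPM in Fos-high LEC. The groups did not overlap, and the log2 fold change was 0.58 ± 0.07 (SE, adjusted p = 9.94e-06), but the call was lost without the library block. Cx3cl1, a membrane-bound chemokine of activated endothelium, had 15.5, 20.3 and 26.0 CPM, against 7.39, 4.54 and 5.52 CPM (1.65 ± 0.29, adjusted p = 0.000623), and lost the call when cells were thinned to 3000 UMIs (adjusted p = 0.175) or paired by total UMIs. Tnf, the inflammatory cytokine, had 37.4, 7.62 and 6.496 CPM, against 4.88, 4.19 and 3.78 CPM (2.16 ± 0.35, adjusted p = 0.000218). Its UMIs lay in 25 of the 273 cells, and its call was lost without library 1 and after thinning (adjusted p = 0.244).

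Ccl7, a monocyte chemokine gene that lies beside Ccl2 on chromosome 11, had 18.7, 61.0 and 42.9 CPM in Ptgs2+ LEC, against 5.31, 6.17 and 3.08 CPM in Fos-high LEC (2.89 ± 0.31, adjusted p = 5.70e-07). Only 10 Ptgs2+ LEC held it, and in each library 1 cell carried 89.7%, 83.3% and 87.9% of the UMIs. Without that cell the mean was 5.92 ± 4.32 CPM (SD, n = 3), against 4.85 ± 1.59 CPM in Fos-high LEC. The difference in Ccl7 thus lay in 3 cells. Tslp, an epithelial-type alarmin cytokine, was called higher at the margin (0.87 ± 0.25, adjusted p = 0.0476). Il33, an alarmin held in the nucleus, was lower (-0.23 ± 0.07, adjusted p = 0.0438), but 15 of 21 alternatives removed that call. Ccl21a fell by 0.19 ± 0.05 (adjusted p = 0.0201), and it has near-identical copies between which reads can be split. Il6 showed no difference, with 10.3, 15.2 and 0 CPM in Ptgs2+ LEC, against 8.75, 7.97 and 7.03 CPM in Fos-high LEC (adjusted p = 0.997). Cxcl10, an interferon-induced chemokine, had 16.1, 107 and 198 CPM, against 64.8, 66.5 and 69.4 CPM (adjusted p = 0.699), with library 1 below and libraries 2 and 3 above.

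Genes of the NF-kB pathway, a set of latent transcription factors released from their inhibitors by cytokine and danger signals, were called higher in 11 of 30 cases (36.7%) and lower in 1, against 2.49% and 2.05% over all genes tested. Their median log2 fold change was 0.24. Subunit genes were among them: Rel rose by 0.52 ± 0.09 (adjusted p = 0.000427), Nfkb1 by 0.44 ± 0.09 (adjusted p = 0.00402), Rela by 0.39 ± 0.10 (adjusted p = 0.0214) and Relb by 0.46 ± 0.13 (adjusted p = 0.0454). Inhibitors and feedback genes rose as well, including Tnfaip3, which edits ubiquitin chains (0.35 ± 0.08, adjusted p = 0.00637), and Zc3h12a, an RNase that degrades inflammatory mRNAs (0.56 ± 0.09, adjusted p = 0.000325). Zc3h12a had 165, 130 and 162 CPM in Ptgs2+ LEC, against 107, 98.5 and 105 CPM in Fos-high LEC, with no overlap. Nfkbia, the inhibitor IkB-alpha, passed the test (0.26 ± 0.07, adjusted p = 0.0227) with 3536, 4119 and 3077 CPM in Ptgs2+ LEC, against 2524, 3068 and 3212 CPM in Fos-high LEC, and library 3 ran the other way. Targets on the cell surface were mixed: Icam1, the leukocyte adhesion molecule, had 2613, 2426 and 2356 CPM, against 2333, 1786 and 2299 CPM (adjusted p = 0.0776). Sele, the E-selectin of activated endothelium, had 10.97, 99.1 and 31.2 CPM, against 4.54, 0.815 and 0.904 CPM (4.14 ± 0.60, adjusted p = 4.59e-05). It was found in 11 Ptgs2+ LEC, and all of library 2 came from 1 cell; without the highest cell of each library the mean was 6.57 ± 6.61 CPM, against 2.09 ± 2.13 CPM in Fos-high LEC (SD, n = 3). In the fit restricted to Itih5-positive cells that is given with the LEC axis, 1 of 30 NF-kB genes was called higher and none lower, where 0.741% of all genes tested were higher and 0.37% lower. Their median log2 fold change in that fit was 0.19, against 0.24 in the fit above.

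Immediate-early genes split. Of 28 tested, 7 were higher in Ptgs2+ LEC (25%) and 4 lower (14.3%), with a median of 0.00. Over all genes tested, 2.49% were higher and 2.05% lower. The higher genes were the 3 orphan receptor genes Nr4a3, Nr4a1 and Nr4a2, with Gem, a small GTPase gene, Egr3, Fosl2 and Fosl1. Nr4a3 had 62.6, 35.6 and 70.2 CPM in Ptgs2+ LEC, against 30.2, 24.9 and 26.8 CPM in Fos-high LEC, with no overlap (1.07 ± 0.15, adjusted p = 4.96e-05). Gem had 171, 193 and 194 CPM, against 102, 91.7 and 93.7 CPM (0.90 ± 0.09, adjusted p = 5.70e-07). Nr4a1 had 381, 353 and 320 CPM, against 258, 231 and 260 CPM (0.47 ± 0.07, adjusted p = 0.000179). The abundant members stayed close between the groups: Egr1 had 7261, 5846 and 7247 CPM, against 6899, 5226 and 6821 CPM (adjusted p = 0.378). Fosb had 4011, 3633 and 3330 CPM, against 4536, 3057 and 3833 CPM (adjusted p = 0.665), and the groups overlapped.

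The genes called lower were Ier3, Atf3, Jund and Klf2. Ier3, an apoptosis regulator gene, had 288, 310 and 350 CPM in Ptgs2+ LEC, against 424, 416 and 584 CPM in Fos-high LEC (-0.61 ± 0.07, adjusted p = 2.12e-06). Atf3 (-0.19 ± 0.05, adjusted p = 0.0281), a stress transcription factor, and Klf2 (-0.21 ± 0.06, adjusted p = 0.0300), a flow-responsive factor, changed sign with the reference. Set against all Ptgs2-negative LEC, Atf3 was 0.53 and Klf2 0.44 higher (adjusted p = 2.12e-27 and 2.98e-16). In that fit, 23 of 28 immediate-early genes were higher and none lower, where 1062 of 12598 genes were called (8.43%), 602 higher (4.78%) and 460 lower (3.65%). Paired cell by cell on Fos share, 11 of 26 were higher and 1 lower, where 351 of 7091 genes were called (4.95%), 219 higher (3.09%) and 132 lower (1.86%). In the paired fit, Egr1 differed by 0.31 (adjusted p = 0.00238). The direction of the abundant immediate-early genes thus depended on which Ptgs2-negative cells were taken. Nr4a3, Gem and Egr3 were called higher against Fos-high, all Ptgs2-negative and Fos-paired LEC. Egr3 had 104.5, 48.3 and 67.6 CPM in Ptgs2+ LEC, against 62.0, 33.1 and 41.4 CPM in Fos-high LEC, with overlap. Its call against Fos-high LEC was lost without library 1 and without the library block.

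Feedback genes of the MAPK pathway, the kinase cascade upstream of many immediate-early genes, rose in 3 of 18 cases (16.7%) and fell in none. The shares over all genes tested were 2.49% higher and 2.05% lower. Spry4, an inhibitor of growth factor signalling, had 149, 117 and 88.4 CPM in Ptgs2+ LEC, against 69.1, 55.5 and 40.6 CPM in Fos-high LEC (1.09 ± 0.11, adjusted p = 2.51e-07). Dusp5, a nuclear ERK phosphatase gene, had 465, 330 and 438 CPM, against 309, 217 and 240 CPM (0.67 ± 0.07, adjusted p = 6.26e-07). Neither gene overlapped between the groups. Dusp4, another phosphatase gene, rose by 1.02 ± 0.23 (adjusted p = 0.00822), while Dusp1 and Dusp6 did not pass the test. Etv3, an ETS repressor gene chosen after its values were seen, had 241, 155 and 177 CPM, against 118, 87.5 and 73.6 CPM (1.05 ± 0.09, adjusted p = 5.99e-08).

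Of 23 genes on the list for the prostanoid pathway, 9 could be tested, of which none was higher and 2 were lower (22.2%). Over all genes tested, 2.49% were higher and 2.05% lower. With so few genes tested, the lack of higher calls does not set the list apart. The genes not tested cannot show whether they followed Ptgs2. Phospholipase A2 gene Pla2g4a, which frees arachidonic acid, had 2 UMIs in the 273 cells, and Ptgs1, the constitutive cyclooxygenase, also had 2. Among the terminal synthases, Ptges, the inducible prostaglandin E synthase, had 18.7, 7.62 and 5.20 CPM in Ptgs2+ LEC, against 18.2, 15.6 and 14.4 CPM in Fos-high LEC (adjusted p = 0.554). Ptges3, a cytosolic synthase that is also a chaperone, had 163, 211 and 179 CPM, against 190, 175 and 182 CPM (adjusted p = 0.835). The prostacyclin synthase Ptgis, the thromboxane synthase Tbxas1 and Ptgds, a prostaglandin D synthase, were at 0 in Ptgs2+ LEC. Against the 2712957 UMIs of these cells, a count of 0 allows up to 1.11 CPM.

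Slco2a1, the transporter that takes prostaglandins up for breakdown, was lower: it had 5.81, 2.54 and 1.30 CPM in Ptgs2+ LEC, against 15.5, 23.1 and 13.1 CPM in Fos-high LEC, with no overlap (-2.004 ± 0.36, adjusted p = 0.000763). It was found in 7 Ptgs2+ LEC. The difference was -0.50 (adjusted p = 0.890) among Itih5-positive cells, and the call was also lost without the library block. The degrading enzyme Hpgd had 2 UMIs. Of the receptors, Tbxa2r, for thromboxane, was lower (39.4, 50.8 and 40.3 CPM, against 62.2, 55.7 and 62.3 CPM; -0.57 ± 0.15, adjusted p = 0.0206), a call lost without library 1 or library 3. Ptger2, a prostaglandin E2 receptor, had 14.8, 17.8 and 18.2 CPM, against 15.1, 16.1 and 14.4 CPM (adjusted p = 0.923), and Ptger4 was at 0 in Ptgs2+ LEC. Ltc4s, which makes the leukotriene C4 from another branch of arachidonic acid metabolism, was chosen after its values were seen. It had 338, 384 and 286 CPM in Ptgs2+ LEC and 235, 207 and 207 CPM in 1-UMI LEC, against 191, 178 and 162 CPM in Fos-high LEC (0.88 ± 0.08, adjusted p = 3.86e-08).

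**Figure D3:**
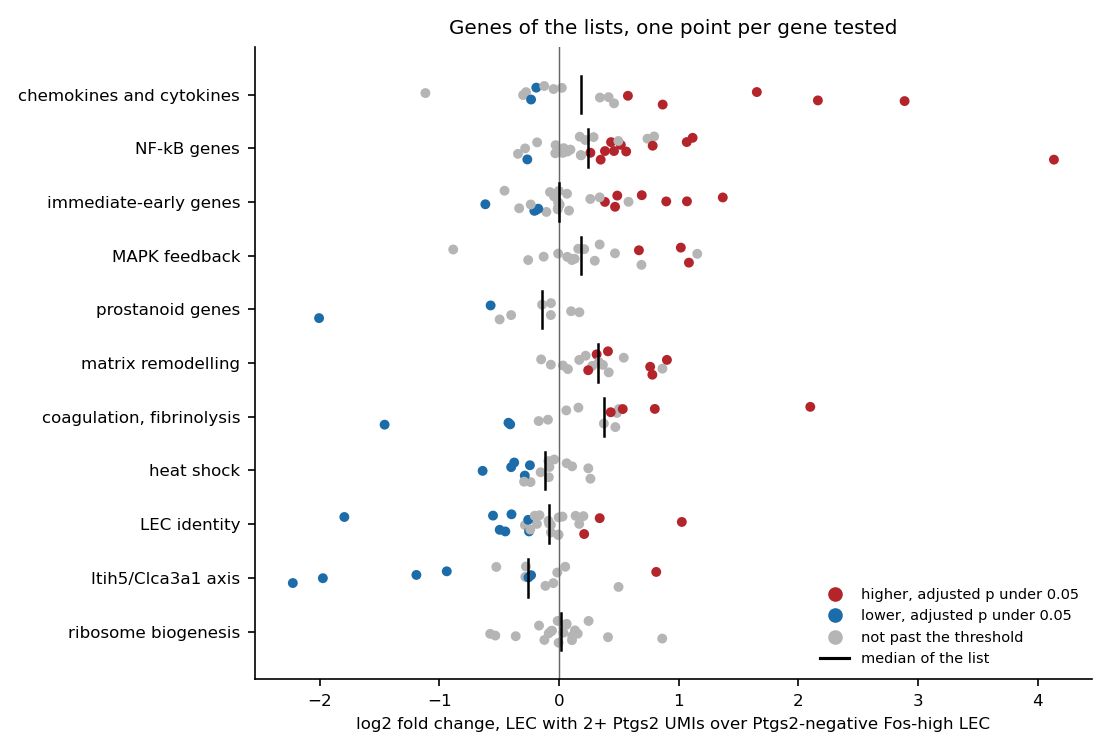
Log2 fold change of Ptgs2+ LEC over Fos-high LEC (x axis) for each tested gene of 11 gene lists (rows), with red and blue points past an adjusted p of 0.05, grey points not, and a black line at the list's median; genes named with Ptgs2 are left out. NF-kB genes lean to the right with 11 of 30 called higher, and heat shock genes have 5 of 16 called lower. None of 9 prostanoid genes is called higher. Over all genes tested, 2.49% are higher and 2.05% lower.

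Ptgs2+ LEC came mostly from one end of the LEC population. In these libraries the ends were told apart by UMIs of Itih5, a hyaluronan-binding matrix protein gene, and of Clca3a1, a chloride channel regulator gene. Both genes were found in 7.465%, 7.146% and 6.15% of Fos-high LEC, and in 9.396%, 2.381% and 6.098% of Ptgs2+ LEC. Among Ptgs2+ LEC, more cells held both than Clca3a1 alone in libraries 1 and 3, and fewer in library 2. Cells with Itih5 and without Clca3a1 made up 67.1%, 61.9% and 72.0% of Ptgs2+ LEC and 57.0%, 40.8% and 57.1% of 1-UMI LEC, against 44.6%, 31.8% and 36.2% of Fos-high LEC. Cells with Clca3a1 and without Itih5 made up 1.34%, 4.76% and 2.44% of Ptgs2+ LEC, against 18.0%, 23.6% and 16.6% of Fos-high LEC. In none of the 3 libraries did the order of these groups differ. As sums, Itih5 had 254, 249 and 308 CPM in Ptgs2+ LEC, against 174, 126 and 143 CPM in Fos-high LEC (0.81 ± 0.09, adjusted p = 1.78e-06). Clca3a1 had 14.2, 7.62 and 12.99 CPM, against 58.2, 79.4 and 50.7 CPM (-2.22 ± 0.21, adjusted p = 9.24e-08). Neither gene overlapped between the groups.

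**Figure D4:**
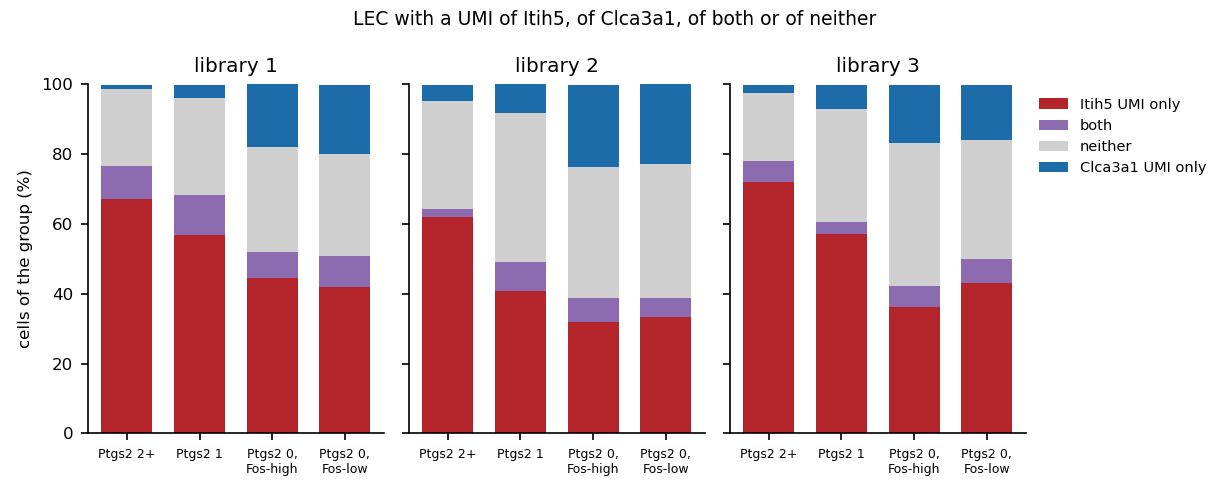
Share of cells (y axis, percent) with a UMI of Itih5 only, of both genes, of neither or of Clca3a1 only, in 4 LEC groups (x axis) for each library (panels). Cells with Clca3a1 only make up at most 4.76% of LEC with 2 or more Ptgs2 UMIs in any library, and at least 16% of the Ptgs2-negative groups.

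Several genes went down together with Clca3a1. Of the 15 tested genes of the list for this axis, 1 was higher (6.67%) and 6 lower (40%). The shares over all genes tested were 2.49% and 2.05%. Tgfbi, a secreted adhesion protein gene, had 5.81, 12.7 and 15.6 CPM in Ptgs2+ LEC, against 35.4, 50.3 and 35.4 CPM in Fos-high LEC (-1.97 ± 0.25, adjusted p = 6.97e-06). Foxp2, a forkhead factor gene, fell by 1.19 ± 0.18 (adjusted p = 9.38e-05) and Ccn3, a matricellular protein gene, by 0.94 ± 0.23 (adjusted p = 0.0141). Outside the lists, Pkhd1l1, a large membrane protein gene, had 4.52, 7.62 and 7.80 CPM, against 32.2, 32.4 and 31.4 CPM (-2.45 ± 0.27, adjusted p = 1.31e-06). Postn, the matrix protein periostin, had 17.4, 17.8 and 20.8 CPM, against 67.3, 82.4 and 74.4 CPM (-1.98 ± 0.17, adjusted p = 2.89e-08). Fmo2, Fmo1, Pdlim3, Epas1, Stmn2 and G0s2 were the other genes with the largest falls outside the lists, between -1.08 and -1.72. Serpine2, a protease inhibitor gene, fell by 1.46 ± 0.14 (adjusted p = 2.51e-07) and Id3, a BMP target gene, by 1.00 ± 0.12 (adjusted p = 2.20e-06).

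To see what remained within that end, the fit was repeated on cells with an Itih5 UMI and no Clca3a1 UMI in both groups, an alternative added after the data were seen. It held 185 Ptgs2+ LEC and 3267 Fos-high LEC and called 117 of 10532 genes (1.11%), 78 higher and 39 lower. Of the 534 calls, 113 were called again with the same sign, and 521 of the 525 that could be tested kept their sign. The fit also has fewer cells, so a lost call does not show that a gene is equal. Kcnj8, Bcl2l11, Gem, Fn1, Nr4a3 and Ltc4s were called higher and Ier3 lower at this end too. The calls of Tgfbi (-1.25, adjusted p = 0.331), Pkhd1l1 (-2.16, adjusted p = 0.0702), Serpine2 (-0.80, adjusted p = 0.140), Epas1 (-0.61, adjusted p = 0.328), Foxp2 (-1.02, adjusted p = 0.0563) and Slco2a1 were lost, whereas Id3 (-0.90, adjusted p = 0.000822) and Postn (-1.002, adjusted p = 0.0252) kept theirs. As a description, within this end Cxcl2 was 0.73, Ccl2 1.45 and Odc1 0.71 higher, and Egr4 0.29.

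Outside the gene lists, the genes at 20 CPM or more that rose most were Nav1, Bcl2l11, Acod1, Vwa1, Dbn1, Phldb1, Cotl1 and St8sia4. Bcl2l11, the pro-apoptotic BIM, had 96.8, 55.9 and 88.4 CPM in Ptgs2+ LEC, against 33.7, 21.9 and 25.04 CPM in Fos-high LEC (1.58 ± 0.13, adjusted p = 2.89e-08). It was also higher among Itih5-positive cells (1.39, adjusted p = 5.34e-05). Acod1, which makes the immunometabolite itaconate, had 82.0, 28.0 and 58.5 CPM, against 21.2, 21.8 and 22.3 CPM (1.52 ± 0.19, adjusted p = 4.20e-06). Library 2 lay nearest to its reference, and without the highest cell of each library the mean of Acod1 was 45.5 ± 26.3 CPM (SD, n = 3). Nav1, a microtubule-binding guidance protein gene, had 53.6, 58.4 and 44.2 CPM, against 20.0, 13.8 and 13.5 CPM (1.62 ± 0.17, adjusted p = 5.70e-07), and lost the call after thinning (0.95, adjusted p = 0.139). Cotl1, an actin-binding protein gene, and Dbn1, the actin-binding drebrin, rose by 1.34 ± 0.16 and 1.37 ± 0.27 (adjusted p = 3.39e-06 and 0.00166).

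The genes Kcnj8, Hilpda and Stc1 were chosen after their values were seen, so their lack of overlap between the groups is a description only. Kcnj8, a subunit of ATP-sensitive potassium channels, had 274, 257 and 252 CPM in Ptgs2+ LEC and 218, 200 and 161 CPM in 1-UMI LEC, against 132, 112 and 110 CPM in Fos-high LEC. Its log2 fold change was 1.12 ± 0.08 (adjusted p = 1.59e-09), and 0.86 among Itih5-positive cells (adjusted p = 6.20e-06). Kcnj8 was found in 75.2%, 78.6% and 75.6% of Ptgs2+ LEC, against 52.1%, 45.4% and 44.1% of Fos-high LEC. Hilpda, a lipid droplet protein gene induced by hypoxia, had 215, 241 and 186 CPM, against 113, 104 and 82.8 CPM (1.05 ± 0.09, adjusted p = 2.89e-08). Stc1, a secreted glycoprotein hormone gene, had 312, 267 and 224 CPM, against 175, 141 and 117 CPM (0.87 ± 0.08, adjusted p = 5.99e-08). Of the hypoxia and glycolysis list, however, 2 of 23 genes were higher (8.7%), Pfkfb3 and Pfkp, and none lower. The shares over all genes tested were 2.49% and 2.05%.

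Genes for matrix and vessel remodelling rose in 6 of 18 cases (33.3%) and fell in none, with a median of 0.32. The shares over all genes tested were 2.49% higher and 2.05% lower. Fn1, fibronectin, had 467, 315 and 391 CPM in Ptgs2+ LEC, against 265, 232 and 201 CPM in Fos-high LEC (0.76 ± 0.08, adjusted p = 4.31e-07). Mmp14, a membrane-bound collagenase gene, had 168, 112 and 121 CPM, against 84.8, 65.1 and 64.6 CPM (0.90 ± 0.10, adjusted p = 1.31e-06). Neither overlapped, and both were called among Itih5-positive cells. Ptgs2-negative Fos-low LEC held more Mmp14 than Fos-high LEC, at 130.5, 92.3 and 104 CPM. Adamts4, an aggrecanase gene, had 65.2, 135 and 142 CPM, against 57.1, 66.6 and 56.7 CPM (0.78 ± 0.15, adjusted p = 0.00177). Its ranges overlapped, and its call was lost without the library block and with a high Fos share in both groups. It was also lost with Fos-paired cells (0.63, adjusted p = 0.0533) and among Itih5-positive cells (0.55, adjusted p = 0.143). The basement membrane collagen genes Col4a1 (0.25 ± 0.06) and Col4a2 (0.41 ± 0.08) and the collagen cross-linker Loxl2 (0.32 ± 0.08) rose less (adjusted p = 0.0143, 0.00299 and 0.0239). Angpt2, a destabilising ligand of the receptor Tie2, had 113, 140 and 105 CPM, against 63.1, 61.2 and 56.2 CPM (0.92 ± 0.11, adjusted p = 3.43e-06). In library 2, 1 cell held 54.5% of its UMIs, and among Itih5-positive cells its difference was 0.59 (adjusted p = 0.0580).

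Coagulation and fibrinolysis genes went both ways, 4 higher (26.7%) and 3 lower (20%) of 15 tested. The shares over all genes tested were 2.49% and 2.05%. Plau, the urokinase that activates plasmin, had 132, 71.1 and 142 CPM in Ptgs2+ LEC, against 77.3, 62.7 and 62.4 CPM in Fos-high LEC (0.80 ± 0.12, adjusted p = 0.000126). F3, the tissue factor that starts clotting, was found in 19 of the 273 cells and had 14.8, 12.7 and 5.20 CPM, against 2.59, 2.74 and 2.34 CPM (2.10 ± 0.41, adjusted p = 0.00175). Its call was lost without library 1 and after thinning (adjusted p = 0.535). Thbs1, an adhesive glycoprotein gene, rose by 0.43 ± 0.06 (adjusted p = 2.34e-05), while the anticoagulants Thbd (-0.42 ± 0.11) and Pros1 (-0.41 ± 0.09) fell (adjusted p = 0.0204 and 0.00453). The calls of Thbd and Pros1 were both lost with DESeq2, without the library block and among Itih5-positive cells (adjusted p = 0.284 and 0.288). Thbs1 was at 0.12 among Itih5-positive cells (adjusted p = 0.674).

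Of 35 antigen presentation and interferon genes tested, 6 were higher (17.1%) and none lower, against 2.49% and 2.05% over all genes tested, with a median log2 fold change of 0.07. The 6 were the class II genes Cd74, H2-Aa, H2-Ab1 and H2-Eb1 with Irf8, an interferon regulatory factor gene, and Isg15, an interferon-induced gene. Cd74, the class II invariant chain gene, had 139, 341 and 474 CPM in Ptgs2+ LEC and 132, 849 and 507 CPM in 1-UMI LEC, against 78.7, 226 and 155 CPM in Fos-high LEC (1.05 ± 0.12, adjusted p = 1.47e-06, for Ptgs2+ LEC). The ranges overlapped, although each library was higher, and the call was lost without the library block. H2-Aa, a class II chain, was at 0.67 ± 0.13 (adjusted p = 0.00117), and its call was lost without the block and among Itih5-positive cells (0.39, adjusted p = 0.402).

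The 5 myeloid genes in Ptgs2+ LEC summed to 9.03, 17.8 and 6.496 CPM, against 6.46, 15.3 and 9.77 CPM in Fos-high LEC, with Cd52 and Csf1r at 0. In 1-UMI LEC they summed to 16.5, 431 and 142 CPM, and none of the 5 was at 0. An alternative added after the data were seen left out every barcode with a UMI of the myeloid or the mural list from both groups. It kept 129, 32 and 69 of the 149, 42 and 82 Ptgs2+ LEC of libraries 1, 2 and 3, and Cd74 (1.21) and H2-Aa (0.80) were still called higher in them. For the 1-UMI LEC it kept 71, 33 and 43 of 79, 49 and 56 cells. There, Cd74 was at 0.025 (adjusted p = 0.989) and H2-Aa at -0.010 (adjusted p = 0.999), where all 1-UMI LEC had given 1.45 and 1.60 (adjusted p = 4.64e-10 and 1.88e-08). In the 1-UMI LEC, 1 cell held 57.8% of the Cd74 UMIs of library 2 and 65.7% of those of library 3.

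Heat shock genes, which warm digestion can induce, were lower in 5 of 16 cases (31.2%) and higher in none. The shares over all genes tested were 2.05% lower and 2.49% higher. Dnajb1, a co-chaperone gene, had 214, 127 and 220 CPM in Ptgs2+ LEC, against 297, 270 and 332 CPM in Fos-high LEC (-0.64 ± 0.09, adjusted p = 2.63e-05). Against all Ptgs2-negative LEC, Dnajb1 was at -0.16 (adjusted p = 0.271), and no gene of the list was lower in that fit. There, 3.65% of all genes tested were lower. Among ribosome biogenesis genes none of 20 tested was called, at a median of 0.02, where 4.53% of all genes tested were called. Hspa5, the main chaperone of the endoplasmic reticulum, rose by 0.35 ± 0.05 (adjusted p = 2.43e-05). Of the fixed polyamine list beyond Odc1, 17 genes were tested, of which Slc7a1, an arginine transporter gene, was higher (0.41 ± 0.11, adjusted p = 0.0253) and Sat1, the polyamine-degrading enzyme, lower (-0.36 ± 0.09, adjusted p = 0.0225). These calls (5.88% higher and 5.88% lower, against 2.49% and 2.05% over all genes tested) were both lost with DESeq2.

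Of 26 tested genes of lymphatic identity, 3 were higher (11.5%) and 7 lower (26.9%), against 2.49% and 2.05% over all genes tested. Nrp2, a VEGF-C co-receptor, had 1811, 1524 and 1663 CPM in Ptgs2+ LEC, against 1502, 1153 and 1236 CPM in Fos-high LEC (0.34 ± 0.05, adjusted p = 9.50e-05). Ptgs2-negative Fos-low LEC also held more Nrp2 than Fos-high LEC, at 1647, 1323 and 1479 CPM. Fgl2, a fibrinogen-like protein gene, fell by 0.55 ± 0.05 (adjusted p = 1.29e-07) and Pdpn, which encodes the podoplanin used in the sort, by 0.40 ± 0.08 (adjusted p = 0.00299). Stab2, a hyaluronan scavenger receptor gene, had 36.8, 35.6 and 24.7 CPM, against 19.2, 15.6 and 10.9 CPM (1.03 ± 0.19, adjusted p = 0.000865), and lost the call without the library block, with cells paired by total UMIs and among Itih5-positive cells. Esam, an endothelial adhesion molecule gene chosen after its values were seen, had 2.58, 2.54 and 1.30 CPM, against 6.63, 9.84 and 8.23 CPM (-1.79 ± 0.48, adjusted p = 0.0269). It was found in 5 Ptgs2+ LEC, and 8 of 21 alternatives removed its call. Fabp4, a fatty acid carrier gene, had 746, 747 and 673 CPM, against 554, 515 and 444 CPM (0.50 ± 0.06, adjusted p = 3.15e-06). The stem cell niche signals were not called: Rspo3, which strengthens Wnt signalling, had 270, 264 and 262 CPM, against 297, 293 and 279 CPM (adjusted p = 0.362). Wnt2 had 167, 150 and 118 CPM, against 140, 134 and 134 CPM (adjusted p = 0.779). Dll4, a Notch ligand, was the niche gene that passed the test (0.38 ± 0.08, adjusted p = 0.00711), and Heyl, a Notch target gene, had 44.5, 40.7 and 24.7 CPM, against 15.3, 12.5 and 11.6 CPM (1.44 ± 0.19, adjusted p = 1.28e-05).

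**Figure D5:**
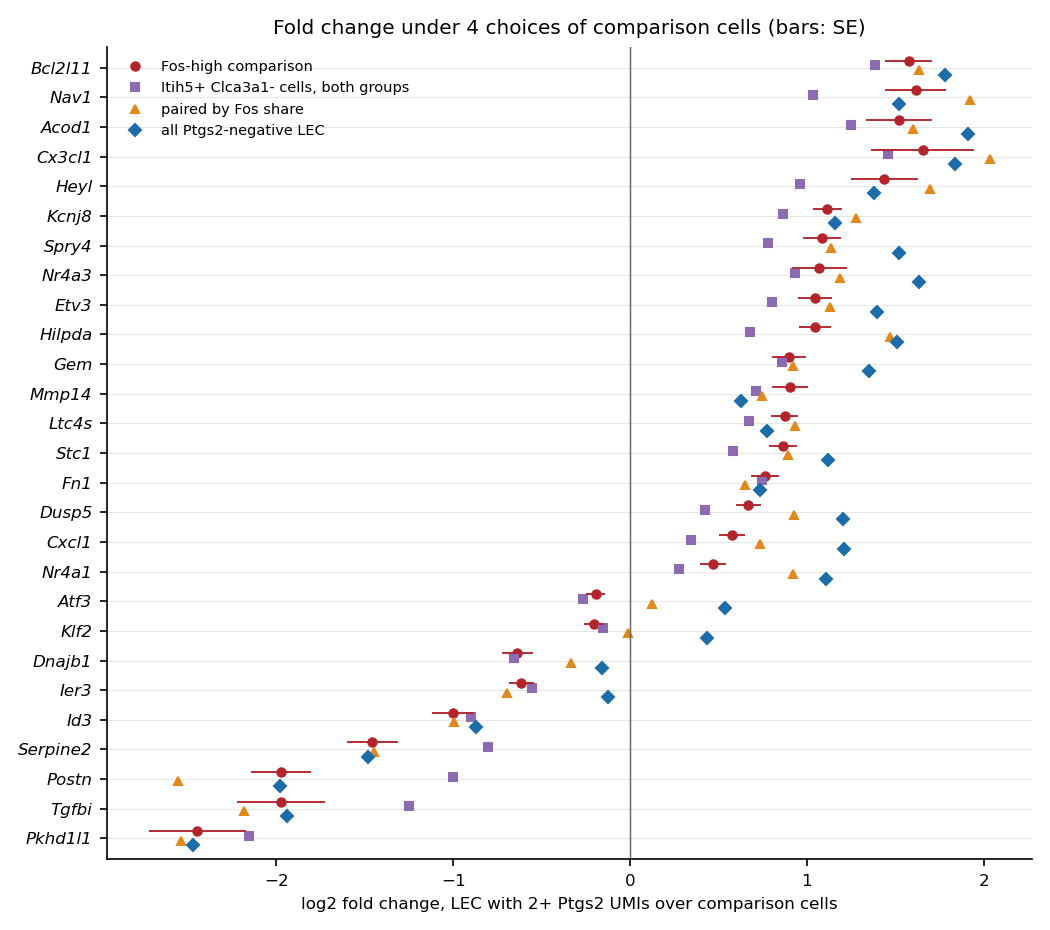
Log2 fold change (x axis) of 27 genes (rows) in Ptgs2+ LEC over 4 choices of Ptgs2-negative cells, as given in the legend, with SE bars on the first. Nr4a1, Atf3 and Klf2 move to the right when all Ptgs2-negative LEC are the reference, and Atf3 and Klf2 change sign; Serpine2, Postn and Tgfbi move toward 0 among Itih5-positive Clca3a1-negative cells.

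The cells just under the limit were compared in the same way. The 1-UMI LEC differed from Fos-high LEC in 167 of 11787 genes (1.42%), 86 higher (0.73%) and 81 lower (0.687%), and with DESeq2 size factors 91 were higher and 56 lower. Without the library block no gene was called by edgeR, although 865 had an unadjusted p under 0.05, and DESeq2 called 88. The 12 calls with the lowest p were, besides class II genes, genes of macrophages and of smooth muscle, named here after their values were seen. Apoe, a lipoprotein gene of macrophages, had 26.6, 492 and 281 CPM in 1-UMI LEC, against 7.52, 22 and 10.4 CPM in Fos-high LEC (4.05 ± 0.22, adjusted p = 1.21e-15). C1qa, a complement gene of macrophages, had 6.34, 178 and 53.6 CPM, against 0.382, 2.68 and 1.34 CPM (5.36 ± 0.46, adjusted p = 2.49e-10), and Lyz2 (4.94), Il1b (5.31), C1qc (5.06) and Tyrobp (4.66) were called as well. Only 9 of the 184 cells held C1qa. Actg2, a smooth muscle actin gene, had 1.27, 1396 and 1.91 CPM, against 1.15, 6.11 and 2.38 CPM (5.90 ± 0.60, adjusted p = 1.35e-08), so its difference lay in library 2, as did those of Myh11 (4.94), Des (4.98) and Cnn1 (5.94). The mural list summed to 10.1, 3634 and 11.5 CPM in 1-UMI LEC, against 7.26, 42.7 and 19.6 CPM in Fos-high LEC. Without barcodes holding a myeloid or mural UMI, 143 of 11286 genes were called, 46 higher and 97 lower. Of the 86 genes higher before, 21 were called higher again, and of the 81 lower, 61. Which of the 1-UMI LEC are mixed droplets was not tested.

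The 1-UMI LEC share their reference with the Ptgs2+ LEC, so the values are set side by side, all 1-UMI LEC included. Kcnj8 was at 1.12 in Ptgs2+ LEC and 0.66 in 1-UMI LEC, Bcl2l11 at 1.58 and 0.86, Spry4 at 1.09 and 0.69, and Clca3a1 at -2.22 and -1.13. Without barcodes holding myeloid or mural genes, the 1-UMI values were 0.65 for Kcnj8, 0.66 for Bcl2l11 (adjusted p = 0.116, the call lost), 0.74 for Spry4 and -1.06 for Clca3a1. Of 28 immediate-early genes, none was higher and 10 were lower in 1-UMI LEC. The Fos-high LEC were selected for a high Fos share and the 1-UMI LEC were not. Fos stood at 7076, 5265 and 5733 CPM in 1-UMI LEC, against 9370, 7608 and 9226 CPM in Fos-high LEC. The part of that selection in the lower calls was not tested, as no fit set 1-UMI LEC against all Ptgs2-negative or Fos-paired LEC. With all Ptgs2-negative LEC as the reference, Ptgs2+ LEC went from 7 higher and 4 lower to 23 higher and none lower. Among 30 to 31 NF-kB genes, 11 were higher in Ptgs2+ LEC and 1 in 1-UMI LEC. Over all genes tested, 2.49% were higher in Ptgs2+ LEC, and 0.73% were higher and 0.687% lower in 1-UMI LEC. Whether these values differ between the groups was not tested.

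Among Ptgs2+ LEC themselves, the other genes did not all climb with Ptgs2. In cells with 2, 3 to 5, and 6 or more Ptgs2 UMIs, of which there were 72, 87 and 114, Odc1 averaged 261 ± 49.4, 284 ± 48.3 and 465 ± 111 CPM (SD, n = 3). Nr4a1 averaged 228 ± 39.0, 284 ± 12.7 and 489 ± 65.9 CPM and Kcnj8 219 ± 10.2, 199 ± 18.7 and 339 ± 31.7 CPM. Cells with 6 or more were the highest for these 3 genes in every library. Cxcl2 averaged 1371 ± 472, 1246 ± 146 and 913 ± 482 CPM. Ccl2 averaged 456 ± 202, 779 ± 751 and 418 ± 275 CPM, and its order differed between libraries: cells with 6 or more were the highest in library 1 (283, 264 and 547 CPM) and library 3 (407, 432 and 605 CPM) and the lowest in library 2 (677, 1640 and 102 CPM). Itih5 stayed at 252 ± 19.5, 299 ± 66.8 and 262 ± 22.9 CPM. Median depth was 8330, 9489 and 10424 UMIs in the 3 classes, and its part in these values was not tested.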

How the data were processed

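Single-cell 3′ mRNA was measured in 3 libraries. The deposited matrices hold raw UMI counts per gene and barcode for 32285 genes. Per the submitters' processing notes, the authors used bcl2fastq 2.2 and Cell Ranger 6.1.2 with mm10 (annotation release not given in the sources used here). From these counts, cells were gated as described, UMIs were summed per library and group, and sums were tested with edgeR 4.0.16 (quasi-likelihood, TMM scaling, filterByExpr, Benjamini-Hochberg adjustment) with the library as a block, since each library gives 1 sum to either group from the same mice and run. Gate genes (8) and mitochondrial genes (13) were kept out of the test. DESeq2 1.42.0 under R 4.3.3 and the other alternatives are given in the closing section. CPM are summed UMIs per 1000000 UMIs of the group. No doublet caller was run; the gates drop barcodes with Ptprc or Epcam, and an alternative leaves out the deepest 5% of LEC.

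Members, markers and the 21 gene lists were chosen with earlier results of these data known. The rule for named genes took an adjusted p under 0.05, the same sign in 3 of 3 libraries and at least 20 CPM in the higher group. It took up to 3 genes with the largest change per list and direction, the 8 largest outside the lists per direction, and some pathway genes whatever their result. Other genes of a list are its called members or examples chosen after their values were seen. Depth is given by the library totals, and binomial intervals and floors cover counting error only. Python 3.11.15, numpy 2.4.6, scipy 1.17.1, pandas 2.3.3 and matplotlib 3.10.9 were used for the rest.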

Additional observations from a re-analysis of the deposited data

Results flagged for a closer look

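Ptgs2 was also present in sorted barcodes that are not LEC. Of these, only the epithelial barcodes were used above, in the description of free RNA. Stromal barcodes (5 or more Dcn UMIs and no Prox1, Epcam or Ptprc) held 2 or more Ptgs2 UMIs in 19.6% of 597. Immune barcodes (1 or more Ptprc UMIs and no Prox1 or Epcam) did so in 18.8% of 357, and epithelial barcodes in 1.07% of 562, against 1.58% of 17975 LEC. In CPM, Ptgs2 averaged 144 ± 41.3 in stromal, 134 ± 27.1 in immune and 1.84 ± 1.42 in epithelial barcodes, against 15.8 ± 10.4 in LEC (SD, n = 3 libraries each). They are given because Ptgs2 was above the limit that a count of 0 allows in data outside the comparisons. Their part in the Ptgs2 UMIs of LEC was not tested.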

How the results depend on the processing

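Between Ptgs2+ LEC and Fos-high LEC, 534 genes were called; the count was 169 without the library block, 290 with DESeq2, 298 with cells thinned to 3000 UMIs, 214 with reference cells paired by total UMIs, 1062 against all Ptgs2-negative LEC and 351 with reference cells paired by Fos share. It was 117 among Itih5-positive Clca3a1-negative cells, a setting chosen after seeing the data, as were a Cxcl9 limit in both groups (552), a high Fos share in both groups (524) and no barcodes with myeloid or mural genes (553). Leaving out a library gave 340 to 535 calls, with the lowest count without library 1. In no fit without the block, with DESeq2 or without a library did a call change sign. For 1-UMI LEC, 167 calls became 0 without the block, 88 with DESeq2, 271 with no filter on low counts and 85 after thinning, 149 to 190 without a library, 118 without barcodes holding other-cell genes and 143 without those holding myeloid or mural genes, the last 2 chosen after seeing the data. Against all Ptgs2-negative LEC the sign turned for Klf2 (0.44), Atf3 (0.53), Sat1 (0.0048), Rgs16 (0.20), Fosb (0.66), Il6 (0.46) and Wnt2 (-0.022). With Fos-paired cells it turned for Atf3 (0.13) and Fosb (0.22), with a high Fos share in both groups for Atf3 (0.027) and Fosb (0.15), and with cells paired by total UMIs for Fosb (0.057). Among Itih5-positive cells it turned for Egr1 (-0.034) and Il6 (0.39). Il6 also turned with a library left out (-0.52 to 0.41, the last without library 3), after thinning (0.10), without the deepest LEC (0.26) and without barcodes holding genes of other cells (0.04) or myeloid or mural genes (0.19), and Wnt2 turned without library 1 (-0.068, up to 0.21 without library 3). The cause was not tested. Thinning gave selected shares of 1.44%, 0.531% and 0.527%. In thinned cells, Ptgs2+ LEC and Fos-high LEC held a UMI of Ccl2 in 36.95% and 14.4%, of Itih5 in 46.9% and 26.8% and of Clca3a1 in 2.69% and 14.1%, and Fos-high LEC held Cxcl2 in 30.7%. With 273 cells in 3 libraries, genes of low counts are limited by depth, and a missed call does not show equal levels.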
